A study of Mus musculus with 12 samples.

Results

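The 10 genes described here encode chaperones and proteases of the mitochondrion (Hspd1, Hspe1, Hspa9, Trap1, Lonp1, Clpp, Clpx, Afg3l2, Spg7 and Htra2). They were chosen by name, matched by mouse symbol to their Ensembl identifiers, and all 10 were found among the 49548 Ensembl genes counted. RNA of the lumbar spinal cord, the segment that innervates the hind limbs, was counted in 8 MFN2 and 4 WT mice at 30 days of age, with 1 library per mouse and no treatment. MFN2 mice, labelled CMT2A after Charcot-Marie-Tooth disease type 2A, are hemizygous MitoCharc1 animals with the transgene Tg(Eno2-MFN2*R94Q)L51Ugfm/J on a B6;D2 background. They carry human MFN2 with the R94Q substitution under the rat Eno2 promoter, which is active mainly in neurons, and keep their own mouse Mfn2. WT mice are labelled C57BL/6, so the background names differ between the genotypes, although the study's methods describe the WT mice as littermates of the MFN2 mice. Total counts ranged from 19359454 to 26738930 per library. Every listed gene passed the filter on low counts, and the lowest count of any of them was 167 reads, for Htra2.

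Most mitochondrial proteins are made in the cytosol, cross the mitochondrial membranes unfolded and are folded inside by dedicated chaperones. Hspa9 (mortalin) pulls precursors into the matrix, Hspd1 (Hsp60) encloses them in a folding chamber that Hspe1 (Hsp10) caps, and Trap1 is the matrix member of the Hsp90 family. Lonp1 and the ClpXP complex, in which Clpx unfolds substrates for the peptidase Clpp, degrade damaged matrix proteins. Afg3l2 and Spg7 (paraplegin) form the m-AAA protease of the inner membrane, and Htra2 is a serine protease of the intermembrane space. Neurons depend on this system over long axons, and mutations of AFG3L2 and SPG7 cause ataxia and spastic paraplegia in humans.

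Hspd1 and Hspe1 are neighbours on opposite strands that are transcribed away from each other, and the stretch between their start sites is shown because their RNA levels are compared as a pair below. On GRCm38.p6, RefSeq places a start site of Hspe1 at 55088148 of chromosome 1 on the plus strand and one of Hspd1 at 55087932 on the minus strand, 216 bases apart. A further Hspd1 start site lies at 55088243, inside Hspe1. The 215 bases between the nearer sites, chr1:55087933-55088147, read as follows on the plus strand, with capitals marking a heat shock element, the motif of alternating TTC and GAA units that heat shock factors bind:
Hspd1 and Hspe1 shared promoter: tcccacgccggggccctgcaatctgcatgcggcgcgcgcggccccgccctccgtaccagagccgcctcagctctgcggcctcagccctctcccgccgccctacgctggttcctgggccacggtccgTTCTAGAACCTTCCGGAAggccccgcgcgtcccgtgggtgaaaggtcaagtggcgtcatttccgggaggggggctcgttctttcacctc

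Promoter windows of 300 bases, from 250 before to 50 after a RefSeq start site, were given for 7 of the 10 genes (not Hspa9, Afg3l2 and Htra2). The motif TTCNNGAA, searched on both strands, was found in the windows of Hspe1 and Clpp, in 1 of the 2 windows of Hspd1 and in 8.52% of all 32851 windows. With 1 more unit, TTCNNGAA followed by NNTTC, it was found in the window of Hspe1, in the same window of Hspd1 and in 0.603% of all windows. The other Hspd1 window, at the start site 55088243, held neither. In the shared stretch the extended motif occurs on both strands, and its matches overlap. TGATGNAA, the core to which ATF4 and CHOP heterodimers bind, was in none of the windows of the 7 genes and in 3.97% of all, and the cAMP response element TGACGTCA was in that of Trap1 and in 1.79% of all. The motifs were chosen with the windows in view, and a match describes letters only.

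In the annotation (GENCODE M21, GRCm38), Hspd1 spans chr1:55077835-55088243 on the minus strand in 12 exon blocks and Hspe1 chr1:55088132-55091307 on the plus strand in 4. Clpp spans chr17:56990305-56996188 on the plus strand in 5 exon blocks, and Hspa9 chr18:34937414-34954357 on the minus strand in 14. The others are Trap1 (chr16:4039971-4077827), Lonp1 (chr17:56614297-56626887), Clpx (chr9:65294260-65330658), Afg3l2 (chr18:67404764-67449172), Spg7 (chr8:123062942-123097760) and Htra2 (chr6:83051266-83055273). The annotation also places exons of Hspd1 and Hspe1 over each other along 112 bases on opposite strands. Whether the counting used strand is not given in the sources used here, so reads from that stretch cannot be assigned with certainty. The same holds for Htra2, whose exons overlap those of Aup1 along 753 bases and of Loxl3 along 535 bases, and for Trap1, which overlaps Dnase1 along 54 bases. Of 12 annotated pseudogenes named after listed genes, 10 were in the count tables and took 352 reads in all 12 libraries together, of which Hspd1-ps3 took 309, against 38107 for Hspd1.

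The libraries are numbered 41 to 47 and 72 to 76. The lower run of numbers holds MFN2 libraries 41 to 43 and all WT libraries (44 to 47). The higher run holds MFN2 libraries only (72 to 76), so its effect and that of the genotype cannot be told apart there. What a run of numbers stands for is not given in the sources used here. Library 43 stood apart from the other cord libraries. Its 8 forebrain genes, Camk2a the most abundant, summed to 4685 CPM (counts scaled to the library size, with TMM factors), against 108.5 to 207.4 CPM in the other 11 libraries. Its 5 caudal Hox genes, which mark the lower cord, summed to 35.4 CPM against 146.5 to 242.4 CPM, and its 5 motor neuron genes to 25.2 CPM against 98.5 to 234.2 CPM. No gene of these lists was at 0 in any library. The main values that rest on library 43 are therefore also given without it.

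Per length of merged exons, the matrix chaperones were the most abundant of the 10 transcripts in WT cord and Htra2 the least. Levels per length are given as RPKM, the CPM per 1000 bases of merged annotated exons, as mean ± SD over 4 mice. Hspa9 stood at 64.4 ± 2.91 RPKM, Hspd1 at 54.1 ± 2.77, Hspe1 at 40.2 ± 3.23 and Trap1 at 25.6 ± 0.531. Among the proteases, Lonp1 stood at 21.7 ± 2.10 RPKM and Clpp at 20.2 ± 1.12, and the ranges of these neighbours overlapped. Spg7 followed at 13.3 ± 0.407 RPKM, above Clpx at 9.24 ± 0.456 and Afg3l2 at 8.84 ± 0.411, whose ranges also overlapped. Htra2 stood at 3.67 ± 0.259 RPKM, so that Hspa9 was 17.6 times as abundant per length as Htra2.

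That order depends on the length used. Afg3l2 has 9874 bases of merged exons but 3094 in its longest CCDS transcript, and by the latter, a measure chosen after the values were seen, it stood at 28.2 ± 1.31 RPKM, close to Trap1 at 28.4 ± 0.587, and Hspe1 at 76.5 ± 6.15 stood above Hspd1 at 59.0 ± 3.02. The protease Lonp1, at 32.2 ± 3.12 RPKM by this length, averaged more than Trap1, with overlapping ranges. Hspa9 remained first and Htra2 last. The sources describe the libraries both as poly(A) or total RNA and as 3′ sequencing. How evenly reads cover these transcripts was not tested, which limits every comparison of levels between genes.

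Across the 8 MFN2 and 4 WT mice, the comparison the study made with its RNA sequencing, none of the 10 transcripts passed the threshold. Hspe1 averaged 46.96 ± 4.99 CPM (SD, n = 8) in MFN2 and 59.2 ± 4.76 CPM (n = 4) in WT mice, with a log2 fold change of -0.33 ± 0.0846 (SE) with an adjusted p of 0.254 (edgeR quasi-likelihood test, Benjamini-Hochberg over all genes tested, threshold 0.05). The log2 fold change of Clpp was -0.22 ± 0.0731 (adjusted p = 0.278, edgeR) and that of Htra2 -0.20 ± 0.0835 (adjusted p = 0.301, edgeR). The other 7 lay between -0.09 for Lonp1 and 0.08 for Hspa9. When 1 library was left out, Lonp1 ranged from -0.15 to -0.05 and Hspa9 from 0.05 to 0.13, and neither passed. With the same test, 0 of 15942 genes passed, a background of 0.0%. The paper, which also used edgeR at this threshold, reports differentially expressed genes for this comparison. The reason for that difference was not tested. At an unadjusted p under 0.05 there were 3 of the 10 listed genes, Hspe1, Clpp and Htra2, all with lower levels in MFN2 mice, beside 2386 genes or 15.0% of all tested. DESeq2 passed 126 genes (0.782%) and also 0 of the 10. Without library 43, edgeR passed 19 genes and again 0 of the 10, with Hspe1 at -0.31 (adjusted p = 0.0873, edgeR).

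**Figure D1:**
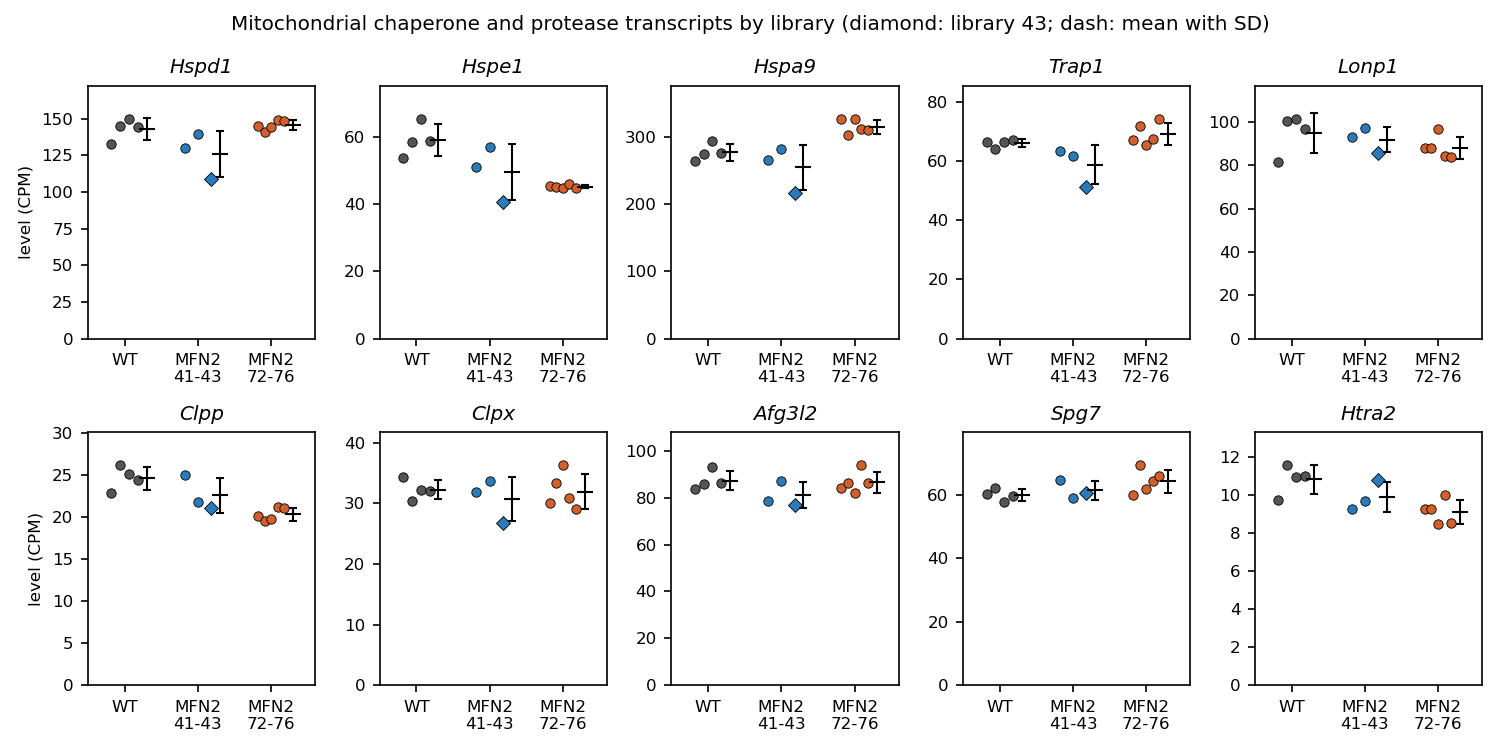
Level of each of the 10 transcripts in every library, in CPM on axes that start at 0, for the 4 WT libraries, MFN2 libraries 41 to 43 and MFN2 libraries 72 to 76; each point is 1 mouse, the diamond is library 43 and the dash with bars is the mean with its SD. Hspe1 sits at 44.9 to 46.2 CPM in libraries 72 to 76, below all 4 WT libraries, and Hspa9 at 303.5 to 327.1 CPM, above all 4.

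Each run of MFN2 libraries was also set against WT on its own. Both comparisons use the same 4 WT libraries. MFN2 libraries 72 to 76 had lower Hspe1 and Clpp and higher Hspa9 than WT, 3 of the 10 genes, where 3746 of 15743 genes tested passed, a background of 23.8%. One of the 10 was higher, against 11.1% of all genes, and 2 were lower, against 12.7%. With all libraries in the fit the listed genes thus passed at a share near that of all genes, but the background moved with the WT libraries, to 2350 of 15697 genes without WT library 45. Scaling by library size alone gave 4 of the 10, with Spg7 added as higher, and changed the split over all genes from 1746 higher and 2000 lower to 2822 higher and 1345 lower. Where groups of libraries are said below not to overlap, the share of all genes without overlap was not counted. Such a separation is therefore a description of the single gene. In bulk tissue, fewer cells of a type and less RNA per cell cannot be told apart.

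Among the folding chaperones, the co-chaperonin Hspe1 fell while its partner Hspd1 did not pass. Hspe1 read 53.9, 58.5, 65.5 and 58.9 CPM in WT libraries 44 to 47, and 45.4, 45.05, 45.02, 46.2 and 44.9 CPM in MFN2 libraries 72 to 76. The groups did not overlap, and the 5 MFN2 libraries lay closer together than the WT libraries. The log2 fold change was -0.39 ± 0.0549, a level 23.5% lower (adjusted p = 0.000739, edgeR). Hspd1 read 132.6, 145.1, 149.8 and 144.2 CPM in WT and 145.1, 140.6, 144.6, 149.4 and 148.6 CPM in these MFN2 libraries. Its groups overlapped throughout, with a log2 fold change of 0.03 ± 0.0466 (adjusted p = 0.730, edgeR).

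Hspa9, the motor of matrix import, rose. It read 264.6, 274.3, 294.6 and 276.4 CPM in WT and 327.1, 303.5, 326.4, 311.5 and 310.4 CPM in MFN2 libraries 72 to 76. All 5 were above all 4 WT libraries, at a log2 fold change of 0.18 ± 0.0470 or 13.7% higher (adjusted p = 0.0147, edgeR). Trap1, at 69.2 ± 3.71 CPM against 66.0 ± 1.37 in WT, showed a log2 fold change of 0.07 (adjusted p = 0.348, edgeR).

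Among the proteases, the peptidase Clpp fell. It read 22.9, 26.2, 25.2 and 24.5 CPM in WT and 20.1, 19.5, 19.8, 21.3 and 21.1 CPM in MFN2 libraries 72 to 76. The highest MFN2 library was below the lowest WT library, at a log2 fold change of -0.28 ± 0.0622 or 17.6% lower (adjusted p = 0.00765, edgeR). Its unfoldase Clpx averaged 31.9 ± 2.90 CPM against 32.3 ± 1.59 in WT, with a log2 fold change of -0.02 (adjusted p = 0.883, edgeR).

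Htra2 read 9.74, 11.5, 10.9 and 11.0 CPM in WT and 9.27, 9.23, 8.45, 9.99 and 8.51 CPM in MFN2 libraries 72 to 76. Library 75 was above the lowest WT library, and the log2 fold change of -0.25 ± 0.0869 did not pass (adjusted p = 0.0535, edgeR). Lonp1 averaged 88.1 ± 5.13 CPM against 95.1 ± 9.18 in WT, with a log2 fold change of -0.11 ± 0.0683 (adjusted p = 0.257, edgeR). Of the m-AAA subunits, Spg7 showed a log2 fold change of 0.10 ± 0.0513 (adjusted p = 0.179, edgeR) and Afg3l2 of -0.01 ± 0.0509 (adjusted p = 0.880, edgeR). The calls of Hspe1, Hspa9 and Clpp in libraries 72 to 76 against WT held under every other scaling, filter and test tried and without any 1 library, with Hspa9 at an adjusted p of up to 0.0460. Without WT library 44, Lonp1 (log2 fold change -0.18, adjusted p = 0.0309, edgeR) and Htra2 (adjusted p = 0.0285, edgeR) passed as well, which makes 5 of the 10, and 4517 of 15636 genes passed in all.

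MFN2 libraries 41 to 43 against the same WT libraries, within 1 run of numbers, gave 0 of the 10 genes. The background was 1 of 15200 genes (0.00658%), with 1083 genes (7.12%) at an unadjusted p under 0.05, of which 0 were listed, and DESeq2 passed 4 genes (0.0115%) and 0 of the 10. Hspe1 read 51.0, 57.2 and 40.8 CPM in libraries 41 to 43, with a log2 fold change of -0.24 ± 0.124 (adjusted p = 0.622, edgeR), and -0.12 without library 43 (adjusted p = 0.936, edgeR). Hspa9 read 266.0, 281.8 and 217.2 CPM, and its log2 fold change was -0.11 (adjusted p = 0.704, edgeR), and -0.0094 without library 43 (adjusted p = 0.996, edgeR). Clpp read 24.99, 21.8 and 21.1 CPM, and its log2 fold change was -0.11 (adjusted p = 0.680, edgeR), and -0.07 without library 43 (adjusted p = 0.957, edgeR). Without library 43, 1 of 14988 genes passed in all. For Hspa9 both libraries 41 and 42 lay inside the WT range. For Hspe1 library 42 lay inside it and library 41 below it, and for Clpp library 41 lay inside it and library 42 below it. Library 43 was the lowest of all 12 libraries for 6 of the 10, Hspd1, Hspe1, Hspa9, Trap1, Clpx and Afg3l2.

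The 2 runs of MFN2 libraries, which share a genotype, were also compared with each other. None of the 10 genes passed, where 342 of 15633 genes did, a background of 2.19%. At an unadjusted p under 0.05 there were 4 of the 10 (Hspd1, Hspa9 and Trap1 higher in libraries 72 to 76, Clpp lower) beside 24.6% of all genes. DESeq2 passed 8.73% of genes and 0 of the 10. Without library 43 the call changed: Hspe1 was lower in libraries 72 to 76 than in 41 and 42 (log2 fold change -0.27, adjusted p = 0.0188, edgeR) and Hspa9 higher (0.20, adjusted p = 0.0447, edgeR). The background rose along with these 2 calls, from 342 genes with library 43 to 2375 without it. The background fell to between 31 and 85 genes without library 41 or any of libraries 72 to 76 (31 without 74, 34 without 73, 57 without 75, 64 without 72, 70 without 41 and 85 without 76).

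**Figure D2:**
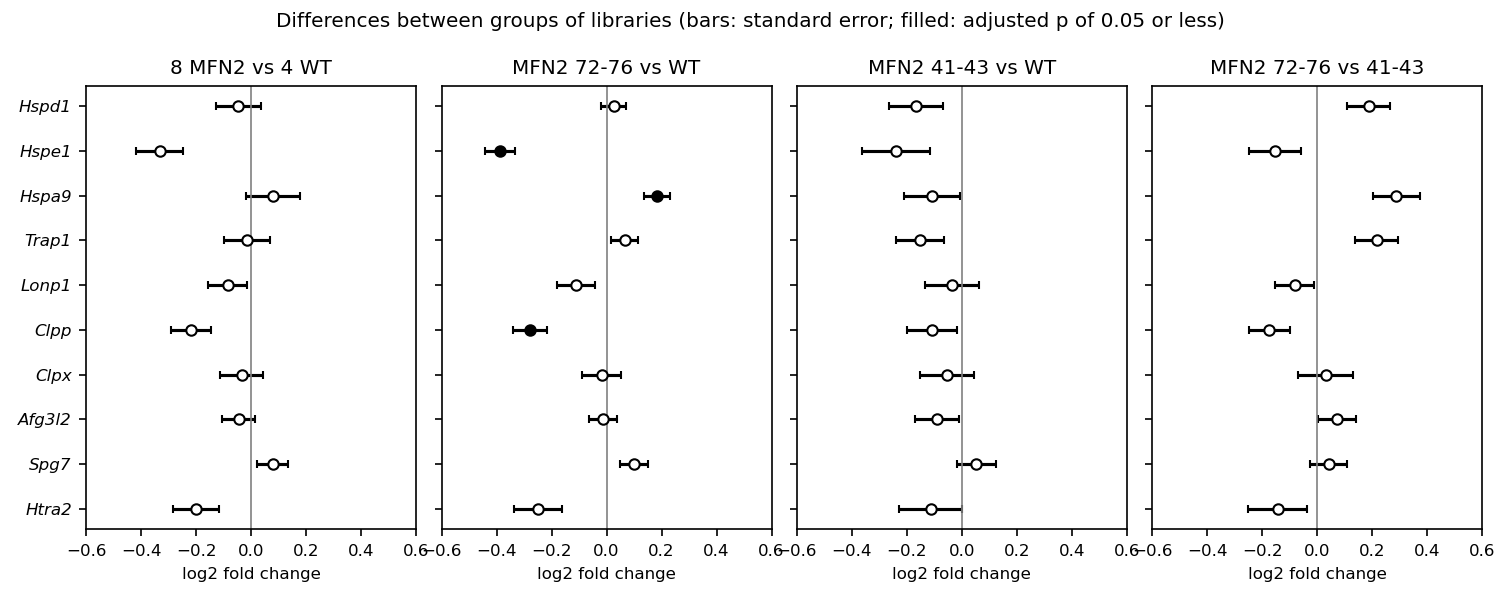
Log2 fold change of the 10 genes, with its standard error, in 4 comparisons: all 8 MFN2 against 4 WT libraries, each run of MFN2 libraries against WT, and the 2 runs of MFN2 libraries against each other. Filled points have an adjusted p of 0.05 or less and occur for Hspe1, Hspa9 and Clpp in libraries 72 to 76 against WT; the first 3 comparisons share their WT libraries.

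Partner genes were also compared as ratios of read counts within a library, which do not depend on how libraries are scaled. The Hspd1 to Hspe1 ratio, chaperonin to cap, read 2.46, 2.48, 2.29 and 2.45 in WT, 2.55, 2.43 and 2.67 in MFN2 libraries 41 to 43, and 3.20, 3.12, 3.21, 3.23 and 3.31 in MFN2 libraries 72 to 76. Libraries 72 to 76 all lay above the 7 libraries of the first run, whatever the genotype. Over all 8 MFN2 mice the mean ratio was 2.97 ± 0.354 (SD) against 2.42 ± 0.0880 in WT, a difference in mean log2 ratio of 0.28 (exact permutation test over 495 splits, two-sided p = 0.0182, adjusted over the 3 ratios 0.0545), and 0.30 without library 43 (adjusted exact permutation p = 0.0818). For libraries 72 to 76 against WT it was 0.41 (exact permutation p = 0.00794, the smallest 126 splits can give, adjusted 0.0238). For libraries 41 to 43 against WT it was 0.07 (exact permutation p = 0.229, where the smallest 35 splits can give is 0.0286). Between the 2 runs of MFN2 libraries it was 0.34 (exact permutation p = 0.0179, the smallest 56 splits can give, adjusted 0.0536), a comparison chosen after the values were seen. Of the pair, Hspe1 passed against WT in libraries 72 to 76 while Hspd1 did not. Any part of the heat shock element printed above in this ratio was not tested.

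The Clpx to Clpp ratio, unfoldase to peptidase, averaged 1.49 ± 0.199 in 8 MFN2 and 1.31 ± 0.139 in 4 WT mice, a log2 difference of 0.18 (exact permutation p = 0.133, adjusted 0.133). The groups overlapped: the lowest MFN2 library, 43, read 1.27 and the highest WT library, 44, read 1.499. The Spg7 to Afg3l2 ratio of the m-AAA subunits averaged 0.750 ± 0.0547 against 0.688 ± 0.0481, a log2 difference of 0.12 (exact permutation p = 0.0869, adjusted 0.130). When 1 library was left out, the Clpx to Clpp difference ranged from 0.12 to 0.25 and that of Spg7 to Afg3l2 from 0.07 to 0.15. Against WT, libraries 72 to 76 gave 0.26 and 0.11 for these ratios, and libraries 41 to 43 gave 0.05 and 0.14. None of these passed (adjusted exact permutation p from 0.0952 to 0.657).

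**Figure D3:**
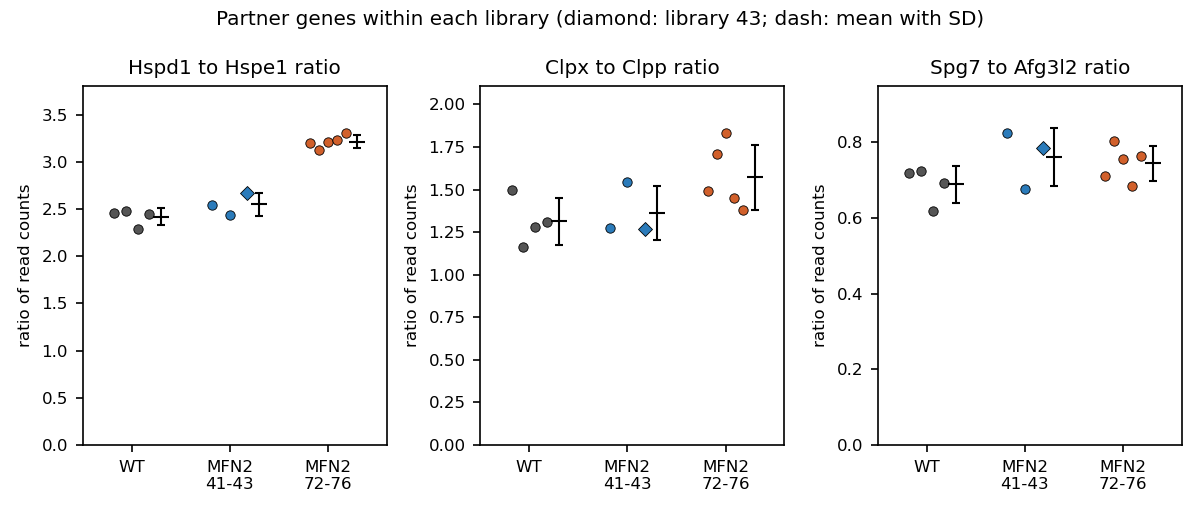
Ratio of read counts of 3 partner pairs within each library, on axes that start at 0; points are mice, the diamond is library 43, and the dash with bars is the mean with its SD. The Hspd1 to Hspe1 ratio is 3.12 to 3.31 in MFN2 libraries 72 to 76 and 2.29 to 2.67 in the other 7 libraries, while the other 2 ratios overlap between groups.

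Co-chaperones and scaffolds that work with the listed proteins, a list of 10, had 1 member that rose and 4 that fell in MFN2 libraries 72 to 76 against WT, and a median log2 fold change of -0.07 beside 0.00 over all genes. In this comparison 11.1% of all genes rose and 12.7% fell, 23.8% together. The prohibitins Phb and Phb2 together form the ring that holds the m-AAA protease in the inner membrane. Phb read 43.9, 48.0, 50.9 and 44.7 CPM in WT and 32.0, 31.9, 33.2, 34.1 and 39.3 CPM in these libraries. The groups did not overlap, at a log2 fold change of -0.46 ± 0.0698 (adjusted p = 0.00102, edgeR). Phb2 did not pass, at a log2 fold change of -0.04 (adjusted p = 0.610, edgeR). Dnlz, which keeps Hspa9 soluble, fell by 0.30 on the log2 scale (adjusted p = 0.00964, edgeR), the scaffold Stoml2 fell by 0.26 (adjusted p = 0.0133, edgeR) and the disaggregase Clpb fell by 0.23 (adjusted p = 0.00842, edgeR). Of the 2 nucleotide exchange factors of Hspa9, Grpel2 rose by 0.28 (adjusted p = 0.0228, edgeR), a call lost with no filter on low counts or without WT library 46 or 47 (adjusted p up to 0.0627), and Grpel1 showed a log2 fold change of 0.08 (adjusted p = 0.378, edgeR). Dnaja3, its J-protein partner and with Phb the most abundant of the list per length in WT (17.4 and 16.7 RPKM), showed a log2 fold change of -0.05 (adjusted p = 0.468, edgeR).

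Of 14 other mitochondrial proteases and their helpers, 1 rose and 0 fell, beside 23.8% of all genes called, with a median log2 fold change of 0.03. Pitrm1, which degrades cleaved presequences, rose by 0.18 (adjusted p = 0.0442, edgeR), a call lost with DESeq2 (adjusted p = 0.0513), under 2 other filters, and when any library but WT library 46 was left out (adjusted p up to 0.135). The i-AAA protease Yme1l1, at 77.5 ± 3.88 CPM against 72.5 ± 4.34 in WT, showed a log2 fold change of 0.10 (adjusted p = 0.228, edgeR), the m-AAA subunit Afg3l1 of 0.01 (adjusted p = 0.942, edgeR) and the presequence peptidase subunit Pmpca of -0.03.

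Of 6 regulators of the mitochondrial and integrated stress responses, 1 fell and 0 rose, beside 23.8% of all genes called, with a median of -0.08. Atf5, a transcription factor known to induce Hspd1 and Lonp1 on mitochondrial stress, read 7.47, 8.34, 8.28 and 7.46 CPM in WT and 5.45, 5.62, 4.22, 5.61 and 6.07 CPM in MFN2 libraries 72 to 76. The groups did not overlap, at a log2 fold change of -0.55 ± 0.117 (adjusted p = 0.00587, edgeR). Atf4, the most abundant of the list at 29.4 RPKM in WT, showed a log2 fold change of 0.14 (adjusted p = 0.0673, edgeR) and passed when scaled by library size or by the upper quartile, or without library 72 (0.17, adjusted p = 0.0360, edgeR). Ddit3 (CHOP) showed a log2 fold change of -0.07 (adjusted p = 0.520, edgeR) and Ubl5 of -0.09.

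Of 19 chaperones of the cytosol and endoplasmic reticulum, 3 rose and 3 fell, beside 23.8% of all genes called, with a median of 0.01. The inducible Hsp70 gene Hspa1b read 8.25, 5.93, 3.10 and 4.33 CPM in WT, 4.92, 2.44 and 5.07 CPM in MFN2 libraries 41 to 43, and 1.36, 1.20, 1.09, 0.890 and 1.48 CPM in MFN2 libraries 72 to 76. The last group lay below all other libraries, at a log2 fold change of -2.17 ± 0.271 against WT (adjusted p = 0.000414, edgeR). Its near-identical copy Hspa1a showed a log2 fold change of -0.77 (adjusted p = 0.0600, edgeR) and passed with DESeq2, with no filter and without library 72 or 44, and how reads were split between the copies is uncertain. When 1 library was left out, the value of Hspa1a ranged from -0.97 to -0.44 (adjusted p up to 0.239, edgeR). The endoplasmic reticulum chaperone Hspa5 (BiP) fell by 0.35 (adjusted p = 0.00320, edgeR) and the chaperonin subunit Cct8 fell by 0.19 (adjusted p = 0.0106, edgeR), the latter not when scaled by library size. Hsp90aa1 rose by 0.18, Tcp1 by 0.15 and Hspa4 by 0.13, with adjusted p-values of 0.0356, 0.0408 and 0.0450 (edgeR), and each of these calls was lost with no filter on low counts, those of Hspa4 (adjusted p = 0.0652) and Tcp1 (adjusted p = 0.0549) also with the filterByExpr filter of edgeR. They were also lost when any of 7 libraries (all but 73 and 76) was left out for Hsp90aa1 and Hspa4, or any of 5 (72, 74, 76, 45 and 47) for Tcp1, with adjusted p-values of up to 0.0967, 0.0981 and 0.116. The most abundant, Hsp90ab1 and Hspa8, had log2 fold changes of 0.01 and 0.09 and did not pass. Hspa8 passed as higher when scaled by library size (0.16, adjusted p = 0.0316, edgeR).

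Genes used as a gauge of mitochondrial content, 12 in all, had 3 that fell and 0 that rose, beside 23.8% of all genes called, with a median of -0.06. Cox4i1, a subunit of complex IV, read 302.5 ± 23.4 CPM in WT and 236.7 ± 4.48 in MFN2 libraries 72 to 76, a log2 fold change of -0.36 ± 0.0532 (adjusted p = 0.000962, edgeR). The outer membrane channel Vdac1 fell by 0.21 (adjusted p = 0.00416, edgeR) and citrate synthase Cs by 0.18 (adjusted p = 0.0139, edgeR), while the highest value was that of Vdac2, at 0.11 (adjusted p = 0.0889, edgeR). Vdac2 passed as higher when scaled by library size (0.19, adjusted p = 0.00814, edgeR) or by the upper quartile (0.14, adjusted p = 0.0377, edgeR).

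**Figure D4:**
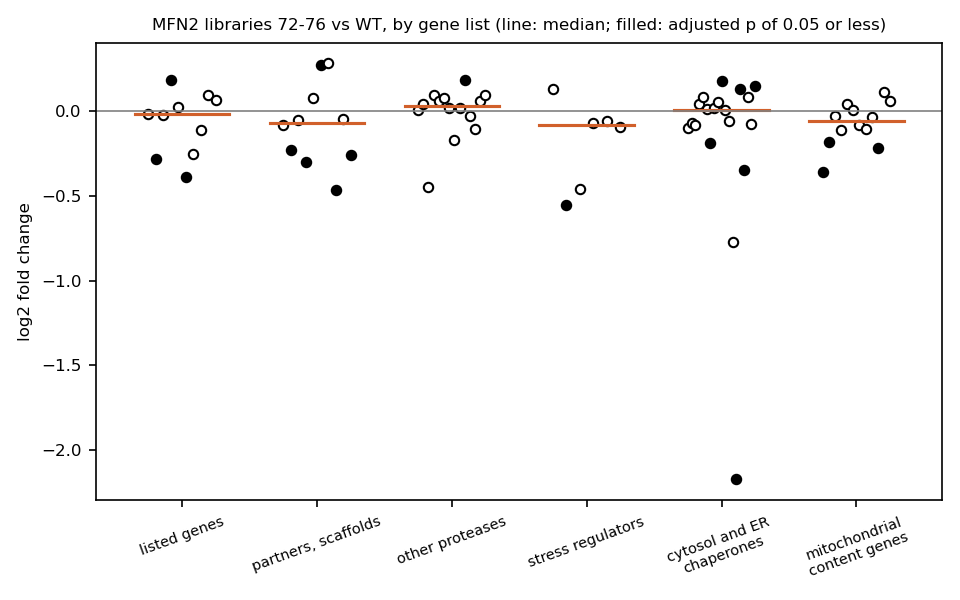
Log2 fold change of MFN2 libraries 72 to 76 against WT for the 10 genes and 5 related lists; each point is a gene, filled where the adjusted p is 0.05 or less, and the line is the median of the list. List medians lie between -0.08 and 0.03, and the lowest point is Hspa1b at -2.17.

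In the other comparisons these 5 lists held 1 call. Of all genes, 0.0% passed for MFN2 against WT and 0.00658% for libraries 41 to 43 against WT. Between the 2 runs of MFN2 libraries 2.19% passed, 342 genes, which became 2375 without library 43. The number of calls in these lists without library 43 is not given here. Hspa1b was lower in MFN2 libraries 72 to 76 than in 41 to 43 by 1.81 on the log2 scale (adjusted p = 0.0242, edgeR), a call lost when any library but 42 and 43 was left out, with an adjusted p of up to 0.0902. In all 8 MFN2 against 4 WT mice and in libraries 41 to 43 against WT, 0 genes of the lists passed. In the latter the lowest gauge of mitochondrial content was Uqcrc2 at -0.18 and the highest Tomm40 at 0.06, and between the 2 runs of MFN2 libraries the lowest was Vdac1 at -0.23 and the highest Vdac2 at 0.17. Phb showed a log2 fold change of -0.41 over all MFN2 mice (adjusted p = 0.254, edgeR).

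Marker genes of other cell types moved in MFN2 libraries 72 to 76 as well. In this comparison with WT 11.1% of all genes rose and 12.7% fell, 23.8% together. The 4 astrocyte genes, Slc1a2 the most abundant and none at 0, summed to 4484, 4864, 4600, 4531 and 5933 CPM in libraries 72 to 76 and to 6274, 7204, 6236 and 6589 CPM in WT, and 3 of them fell, Gfap the most, by 1.08 on the log2 scale (adjusted p = 0.0213, edgeR). The 4 microglia genes, Csf1r the most abundant and none at 0, summed to 85.6, 80.6, 83.3, 72.7 and 89.7 CPM against 91.7, 122.6, 105.5 and 112.3 CPM, and all 4 fell, Tmem119 the most, by 0.76 (adjusted p = 0.00570, edgeR). Of the 5 neuronal genes, Syt1 rose and Snap25 fell, and their sums, 2569 to 2899 CPM against 2818 to 3249 CPM, overlapped. Of the 3 endothelial genes, Cldn5 fell by 0.82 (adjusted p = 0.00685, edgeR). Flt1, the most abundant, went the other way, at 0.64 (adjusted p = 0.145, edgeR), and Pecam1 stood at -0.03 (adjusted p = 0.870, edgeR). Neither of the latter passed. The sums of the 3 genes, 91.2 to 115.1 CPM against 77.4 to 102.5 CPM, overlapped. Of the 3 blood genes, Alas2 rose by 1.18 (adjusted p = 0.0479, edgeR), with sums of 85.01 to 188.8 CPM against 55.7 to 124.9 CPM. No gene of these last 2 lists was at 0 in any library. The part of these cell type markers in the levels of Hspe1, Clpp and Hspa9 was not tested. The 3 skeletal muscle genes summed to 168.0 CPM in library 73 and 10.5 to 26.5 CPM in the other 4 of these libraries, and to 181.8 CPM in WT library 47. Without library 73, Hspe1 (log2 fold change -0.38), Clpp (-0.26) and Hspa9 (0.21) still passed against WT.

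Base composition moved with the second run too, in a description chosen after the values were seen. In MFN2 libraries 72 to 76 against WT, the median log2 fold change of all genes was 0.10 where the annotated transcripts had up to 45% GC, 0.02 between 45% and 50%, -0.04 between 50% and 55% and -0.09 above 55%. It ran the same way between the 2 runs of MFN2 libraries, from 0.08 to -0.13, but not in libraries 41 to 43 against WT, where it was 0.01 at both ends. Hspa9, which rose, has 43.8% GC, Clpp, which fell, has 58.1% and Hspe1, which fell, has 48.3%, in the same class as Hspd1 at 48.8%. The other listed genes above 50% GC did not pass and went both ways against WT. Spg7 (55.2%) and Trap1 (53.8%) had positive values, and Lonp1 (56.8%) and Htra2 (57.2%) negative ones. The part of base composition in these results was not tested.

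**Figure D5:**
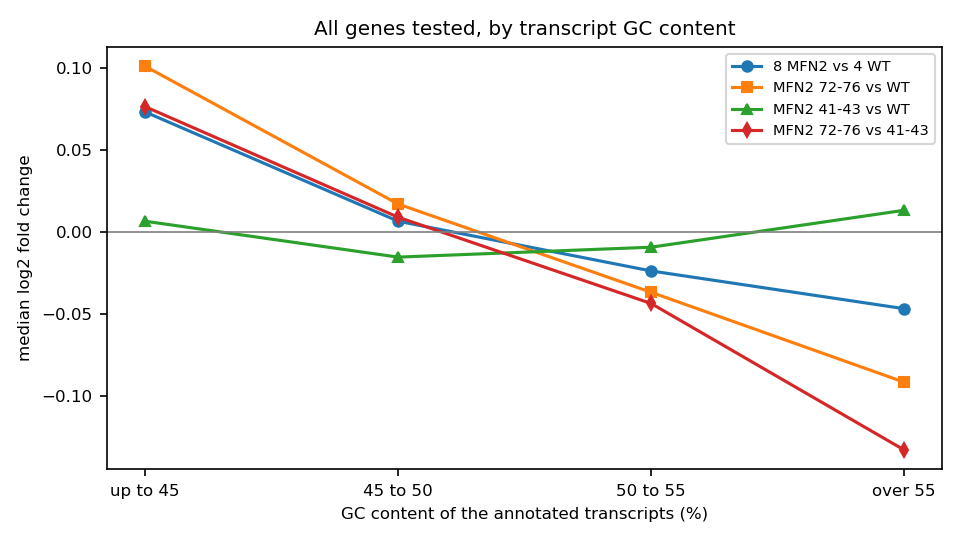
Median log2 fold change of all genes tested, in 4 classes of GC content of the annotated transcripts, for each of the 4 comparisons. In the 3 comparisons with MFN2 libraries 72 to 76 the median goes down with GC content, from 0.10 to -0.09 against WT, and in libraries 41 to 43 against WT it stays between -0.02 and 0.01.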

How the data were processed

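Counts of reads per Ensembl gene were deposited for 12 libraries, 1 per mouse, as whole numbers without normalization. Per the labels and the submitters' processing notes, the authors ran bcl2fastq and STAR on GRCm38.p6 and used edgeR. Which tool counted the reads, and whether by strand, is not given in the sources used here. Of 49548 genes, 49289 had a symbol in GENCODE M21. RefSeq promoter windows (GRCm38.p6) were read by symbol.

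Genes above 1 CPM in at least 3 libraries of a comparison were scaled by TMM and tested over all genes with edgeR 4.0.16 in R 4.3.3 (quasi-likelihood test, legacy, robust, Benjamini-Hochberg, FDR 0.05). Standard errors were derived from the F statistic. DESeq2 1.42.0, other scalings and filters, the library number run as covariate and leaving out each library were alternatives. Ratios used log2 CPM with a prior count of 2 and exact permutation tests. On simulated counts with 200 genes changed by a log2 fold change of 1, the comparison of MFN2 with WT recovered 93.5% of them among 15840 genes, and that of libraries 41 to 43 with WT 69.5% among 15317. Smaller changes were not simulated. All genes were drawn with the same dispersion of 0.05, with no difference between the runs and no library set apart as 43 was. The shares recovered therefore need not hold in the real libraries.

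The members, gene lists, tests and naming rule were chosen with earlier results of these data known. The rule names all 10 genes, every gene of 4 related lists past the threshold, the 2 most abundant of each per length, 8 fixed genes and the largest rise and fall among the mitochondrial content genes. Marker lists are given by their sums, and 2 lists are not reported here. Genes named from those lists for their values (Gfap, Tmem119, Syt1, Snap25, Cldn5, Alas2) and Vdac1 and Cs where they are named as the remaining calls were chosen after their values were seen. Phb2, outside the rule, was named as the partner of Phb after its values were seen. No pair of libraries of a group agreed within sampling noise.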

Additional observations from a re-analysis of the deposited data

Results flagged for a closer look

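Over 13 quantities, each in the 8 MFN2 and the 4 WT libraries, 3 of 26 groups of values had a library whose gap to its neighbour was large for the range of its group, where chance would give about 1.3. Among the 8 MFN2 libraries, library 43 was lowest for Hspd1, with a gap of 0.558 of the range of log2 CPM, and library 41 was highest for Clpp, with a gap of 0.544. Among the 4 WT libraries, library 46 had the lowest Hspd1 to Hspe1 ratio, with a gap of 0.836 of the range, which itself ran only from 2.29 to 2.48.

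Within the MFN2 genotype, Hspa1b was lower in libraries 72 to 76 than in 41 to 43, with a log2 fold change of -1.81 (adjusted p = 0.0242, edgeR) and no overlap between the libraries. The Hspd1 to Hspe1 ratio showed a difference of 0.335 in mean log2 ratio between the same libraries, with all 5 of libraries 72 to 76 above 41 to 43 (exact permutation p = 0.0179, the smallest 56 splits can give), and did not pass once adjusted over the 3 ratios (0.0536).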

How the results depend on the processing

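The 10 genes had 0 calls for MFN2 against WT and for libraries 41 to 43 against WT in every alternative and without any 1 library. For libraries 72 to 76 against WT they had 3 to 5 calls when 1 library was left out (5 without WT library 44) and 4 when scaled by library size. For libraries 72 to 76 against 41 to 43 they had 0 to 2 (2 without library 43). The number of all genes called moved more. DESeq2 called 126 for MFN2 against WT, 4 for libraries 41 to 43 against WT and 1566 for libraries 72 to 76 against 41 to 43, and with no filter 0 were called for libraries 41 to 43 against WT. Leaving out 1 library gave 0 to 19 calls for MFN2 against WT (19 without library 43, 7 without 41), 2350 to 4517 for libraries 72 to 76 against WT (2350 without WT library 45), 0 to 2 for libraries 41 to 43 against WT (2 without library 41, 0 without any WT library) and 31 to 2375 for libraries 72 to 76 against 41 to 43 (2375 without library 43, 31 to 85 without library 41 or any of 72 to 76).

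The values that turned sign were not called, and the largest in size was that of Hspa9. For MFN2 against WT, scaling by library size, which moved the median of all genes by 0.05, gave Hspd1 0.0055, Trap1 0.036, Clpx 0.015 and Afg3l2 0.0052. In the same comparison, the run as a covariate gave Hspa9 -0.12 (adjusted p = 0.483, edgeR), against 0.08 in the main fit. For libraries 72 to 76 against WT, library size gave Clpx 0.052, Afg3l2 0.058, Ddit3 0.0020, Dnaja3 0.021 and Pmpca 0.045, and the upper quartile gave Clpx 0.0042 and Afg3l2 0.00933. Leaving out 1 library gave Trap1 -0.043 to 0.028 for MFN2 against WT. For libraries 72 to 76 against WT it gave Hspd1 -0.0089 to 0.047, Clpx -0.064 to 0.020, Afg3l2 -0.037 to 0.017, Afg3l1 -0.054 to 0.058 and Hsp90ab1 -0.024 to 0.050. For libraries 41 to 43 against WT it gave Lonp1 -0.098 to 0.0089 and Clpx -0.13 to 0.032, and for libraries 72 to 76 against 41 to 43 Clpx -0.048 to 0.095.

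The Hspd1 to Hspe1 difference of 0.28 in mean log2 ratio passed for libraries 72 to 76 alone (0.41) and without library 42 (adjusted p = 0.0182), and ranged from 0.26 to 0.32 without any 1 library. The Spg7 to Afg3l2 difference was -0.032 between the runs of MFN2 libraries, a comparison chosen after the values were seen. The cause of these changes was not tested. No paired analysis was possible because the sample labels give no litter or other pairing of MFN2 with WT mice. Total counts of 19359454 to 26738930 per library limit genes near 1 CPM, such as Hspa1b.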
